A study of Mus musculus with 8 samples.

Results

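The cytosolic ribosomal protein genes were examined in RNA-seq of BNP-injected mouse cheek skin. They were taken by symbol: Rpl or Rps followed by a number and at most 1 of the letters a, x, l or y, together with Rplp0, Rplp1, Rplp2 and Rpsa. The rule found 84 of the 18901 genes in the deposited table. Of these, 31 encode proteins of the small subunit, 46 encode proteins of the large subunit and 7 are called paralogues here, that is, second copies of a subunit gene such as Rpl3l; one of them, Rpl32l, has no coding transcript in GENCODE M21. The skin came from 4 TBX20fl/fl;K14-Cre mice, in which exons 2 and 3 of both floxed Tbx20 alleles are deleted by Cre from the keratin 14 promoter of basal keratinocytes, and from 4 TBX20fl/fl mice, littermates that carry the same floxed alleles and no Cre. All were 7-week-old females. They came from crosses of floxed mice, given as C57BL/6J in the paper, with K14-Cre mice, given as C57BL/6N. Each received 10 µg of BNP, the natriuretic peptide that acts on NPR1, into the left cheek, was recorded for 30 min and was euthanised 5 h later. Every library is whole cheek tissue of 1 mouse, so the cells without Cre contribute to it, and every mouse of both groups had BNP.

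Ribosomal proteins surround and stabilise the rRNA of the small subunit, which decodes mRNA, and of the large subunit, which joins amino acids. Nearly every protein is needed in a single copy per ribosome, and cells produce them in step and break down those that find no partner. Most of their mRNAs are short and abundant, and they begin with a 5′ terminal oligopyrimidine (TOP) tract, a C followed by a run of C and T, through which mTOR and LARP1 control how strongly they are translated. RNA-seq measures the mRNA and not its translation. In whole tissue, fewer cells of a type and less RNA per cell cannot be told apart.

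The start of the transcript is what these genes are known to share, so the start regions were read from RefSeq promoter sequences (GRCm38.p6). A sequence was found for 64 members. The 15 bases before the annotated start and the 15 bases from it on are shown for the 4 members with the longest run of C and T across the start, for Rps6 and Rps27 as small-subunit genes with a shorter run, and for Rps25, Rpl3l and Rpl7l1 as members with no run or a single C. Capitals mark the unbroken run of C and T that holds the annotated start base.
Rpl7a (chr2:26910792-26910821, plus strand): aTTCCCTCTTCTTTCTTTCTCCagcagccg
Rpl27a (chr7:109519180-109519209, plus strand): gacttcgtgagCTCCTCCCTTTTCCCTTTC
Rpl35 (chr2:39005117-39005146, minus strand): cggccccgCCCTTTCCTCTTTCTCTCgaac
Rpl15 (chr14:18270972-18271001, minus strand): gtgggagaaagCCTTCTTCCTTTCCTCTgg
Rps6 (chr4:86857353-86857382, minus strand): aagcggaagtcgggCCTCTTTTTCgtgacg
Rps27 (chr3:90213634-90213663, minus strand): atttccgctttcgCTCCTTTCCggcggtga
Rps25 (chr9:44407699-44407728, plus strand): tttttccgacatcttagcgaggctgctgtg
Rpl3l (chr17:24727811-24727840, plus strand): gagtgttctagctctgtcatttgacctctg
Rpl7l1 (chr17:46782642-46782671, minus strand): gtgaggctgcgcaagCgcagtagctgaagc

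A run of at least 5 such bases held the annotated start in 19 of the 64 members (29.7%) and in 9.95% of the 27025 genes with a window. The start base itself was a C in 34.4% of members and 16.2% of all genes. In the same windows TCTTT, on either strand and often inside a C and T run, occurred in 17.2% of members and 6.63% of all genes. Over the whole sequence, from 250 bases before the start to 50 after, CCGGAAG on either strand was found in 39.1% of members and 9.12% of all genes. AAGATGG, on either strand, was found in 14.1% and 6.48%, and TATAAA, on the gene's strand, in 10.9% and 8.88%. These are matches of letters at annotated starts, which can lie some bases away from the start used in skin.

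FPKM, a count scaled by transcript length and by the total of the library, allows levels of different genes to be compared. The 77 subunit genes had a median of 1235 FPKM over the 8 mice, and 48 of them lay above 1000 FPKM. The highest was Rpl23a, whose protein sits at the exit of the tunnel for the nascent chain, with a mean of 3832 FPKM. It was followed by Rps14 and Rps3a1, small-subunit genes with 2706 and 2643 FPKM, by Rpl12, at the base of the stalk, with 2419 FPKM, and by Rpl13a, with 2354 FPKM. The lowest was Rps6, the phosphorylation target of S6 kinase, with 31.7 FPKM. That makes a 120.8-fold range of the deposited FPKM, although the proteins are used in equal numbers, and limits of the values at both ends are given below. Of the other subunit genes, 5 lay under 300 FPKM, namely Rpl31, Rpl22, Rpl23, Rps20 and Rps15a.

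**Figure D1:**
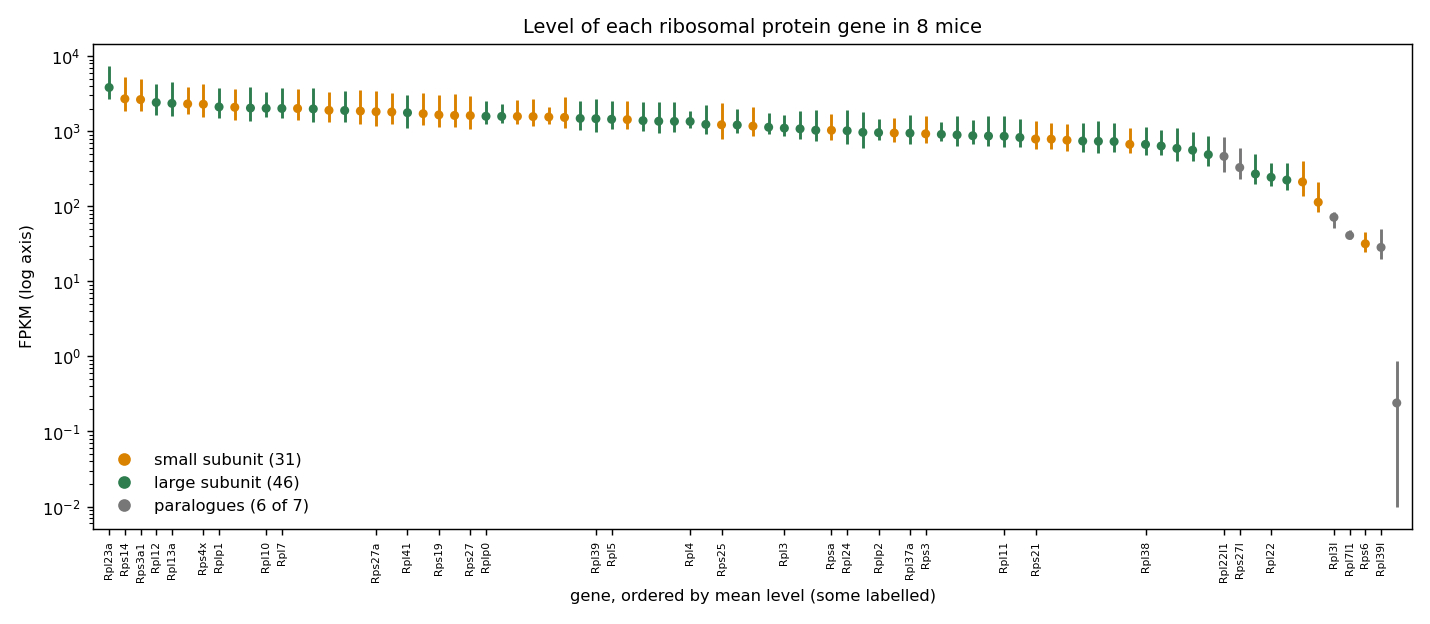
FPKM on a log axis of 83 ribosomal protein genes, ordered by their mean over the 8 mice; points are the mean and bars run from the lowest to the highest mouse, with a mouse at 0 drawn at 0.01 and some genes labelled. The lower and upper quartiles of the 77 subunit genes are 858 and 1767 FPKM, and the paralogues lie at the low end.

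Reads of several members cannot be assigned to 1 gene by sequence alone. The median member shared 23.6% of its 50-base stretches, the length of a read, with transcripts of other genes or pseudogenes in GENCODE M21, and 7 members shared over 50%. The share was 80.8% for Rpl23a, the most abundant subunit gene, 43.8% for Rps6, the least abundant, and 84.1%, the largest, for Rpl35. No stretch of Rpl3l or Rpl39l was shared. FPKM values of members with shared stretches are therefore uncertain. For Rps6, which had 667 to 977 counts in a mouse, the implied length was 1345 bases. Its longest annotated transcript has 1128 bases and its coding transcript 878. Rps20 and Rps15a have their FPKM divided by a long transcript, 3397 and 5087 bases as implied by the table, and the annotation also lists a coding transcript of 250 bases for Rps15a. The order of the members was nearly the same in every mouse, with Spearman correlations across the 84 genes of 0.967 to 0.996 in the 28 pairs of mice (genes are not independent replicates). Summed FPKM of the small-subunit genes per 100 FPKM of the large-subunit genes was 76.4, 77.8, 76.7 and 76.1 in TBX20fl/fl;K14-Cre replicates 1 to 4 and 77.5, 78.7, 78.0 and 77.0 in TBX20fl/fl replicates 1 to 4. It was lower with K14-Cre in 4 of 4 same-numbered pairs, although the groups overlapped. What a replicate number marks is not given in the sources used here. The ratio ran from 76.1 to 78.7 over the 8 mice, while the sum of the small subunit itself ran from 31898 to 79269 FPKM.

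Ribosomal protein genes took 5.72%, 8.22%, 5.64% and 5.35% of all counts in TBX20fl/fl;K14-Cre replicates 1 to 4. In TBX20fl/fl replicates 1 to 4 they took 6.27%, 12.9%, 7.88% and 6.59%. The means were 6.23% ± 1.33 (SD, n = 4) and 8.41% ± 3.06 (SD, n = 4). TBX20fl/fl replicate 2 stood far above every other mouse, TBX20fl/fl;K14-Cre replicate 2 was the highest of its group, and the groups overlapped. Of the 4 pairs with the same replicate number, the share was lower with K14-Cre in 4 of 4. Without TBX20fl/fl replicate 2 the control mean was 6.91% ± 0.853 (SD, n = 3).

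TBX20fl/fl replicate 2 also stood apart in other short transcripts. Its total count was 16056282, against 18960461 to 19880654 in the other 7, and 81 of the 84 members had their highest FPKM in it. Relative to the median of the other 7 mice, the median member was 2.96 times as high there (1.57 on the log2 scale, range 0.52 to 3.83), against -0.05 on the log2 scale over all genes tested. The median member was 677 bases long (274 to 5087), against 2699 bases over all genes tested, and 75 of the 83 members tested fell in the shortest of 5 length bins of equal size. The other genes of that bin were taken as log2 of the same TMM-scaled CPM minus the mean of the 8 mice. Their medians were -0.19, -0.07, -0.24 and -0.26 in TBX20fl/fl;K14-Cre replicates 1 to 4 and -0.14, 0.92, 0.10 and -0.11 in TBX20fl/fl replicates 1 to 4. The members had medians of -0.35, 0.14, -0.41 and -0.49, and of -0.21, 1.33, 0.16 and -0.14, in the same order. The order of the 8 mice was the same for the members and for the other short transcripts. After a smooth trend with length, fitted in each mouse on non-members, was subtracted, the medians of the members ran from -0.14 to 0.11 in both groups together.

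**Figure D2:**
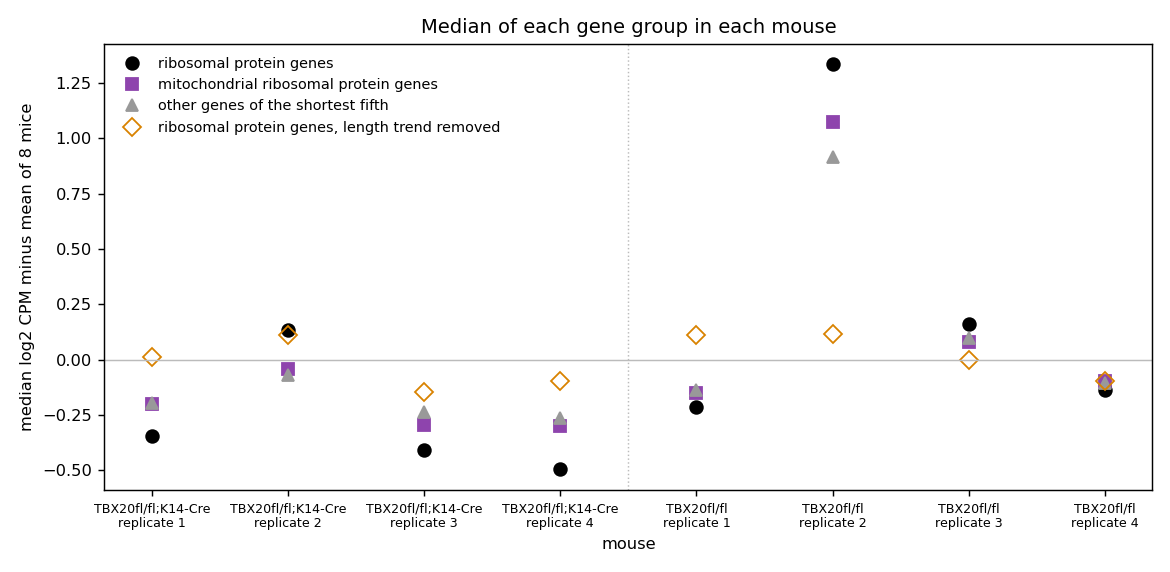
Median TMM-scaled log2 CPM minus the mean of the 8 mice (vertical axis) in each mouse, by gene group. The groups are the ribosomal protein genes, the mitochondrial ribosomal protein genes and the other genes of the shortest length bin. Open diamonds are the ribosomal protein genes with the length trend removed. TBX20fl/fl replicate 2 stands at 1.33, 1.07 and 0.92 for the 3 groups and at 0.11 with the trend removed.

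The counts of Tbx20 were too few to check its loss, 0 to 2 with K14-Cre and 0 to 3 without. Marker levels are given as CPM of the plain library total, without TMM. All 5 keratinocyte markers were abundant, with a summed level of 7978, 6176, 7280.2 and 7866 CPM in replicates 1 to 4 with K14-Cre and of 8115, 5321, 6339 and 7079 CPM without, and skeletal muscle, adipocyte and fibroblast markers were abundant too, as whole cheek tissue holds. By plain total the keratinocyte sum was lowest in 3 mice, TBX20fl/fl replicates 2 and 3 and TBX20fl/fl;K14-Cre replicate 2. These 3 had the highest share of ribosomal protein counts. The 6 neutrophil markers summed to 80.5 to 194.8 CPM and 193 to 509.0 CPM, lower in TBX20fl/fl;K14-Cre in 4 of 4 same-numbered pairs, with Ly6g at 0.103 to 0.481 CPM. Cycling markers (Mki67 and Top2a) summed to 84.0 to 277.1 CPM and 29.5 to 125.5 CPM, the highest in TBX20fl/fl;K14-Cre replicate 2 and the lowest in TBX20fl/fl replicate 2, the mouse with the highest share of ribosomal protein counts. The part of these markers in the results below was not tested.

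Whether loss of epidermal TBX20 changed these transcripts was asked with edgeR's quasi-likelihood test on the counts, with 83 of the 84 members (all but Rpl10l) among the 17124 genes with at least 10 counts. None of the 83 members passed an adjusted p of 0.05, and nor did any other gene (0%); the smallest adjusted p was 0.498 after Benjamini-Hochberg adjustment in edgeR's test. At an unadjusted p under 0.05, 4 members were lower in TBX20fl/fl;K14-Cre and 0 were higher, against 5.91% of all genes lower and 2.45% higher. All 83 had a fold change below 0, against 47.5% of all genes, with a median log2 fold change (TBX20fl/fl;K14-Cre minus TBX20fl/fl) of -0.70, or 61.5% of the control level, against 0.03 over all genes. It ran from -0.87 for Rps25 to -0.22 for Rpl3l. In DESeq2's Wald test 0 members passed (0.0526% of all genes were lower and 0.00584% higher past the threshold) and 26 had an unadjusted p under 0.05 (8.29% of all genes were lower at that p), and limma on log2(FPKM + 1) gave 0 and 0, against 0% of all genes past the threshold and, at an unadjusted p under 0.05, 3.39% lower and 3.16% higher.

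Fitted with a term for the replicate number (a block), 0 members passed and 53 were lower at an unadjusted p under 0.05, against 6.54% of all genes, with a median of -0.58. Of the 83 members, 79 had lower TMM-scaled CPM in TBX20fl/fl;K14-Cre in 4 of 4 same-numbered pairs, against 14.3% of all genes tested. Without TBX20fl/fl replicate 2 the median was -0.20, with 82 of 83, all but Rpl32l, lower (47.6% of all genes) and 0 at an unadjusted p under 0.05 (4.5% of all genes). With the length trend removed it was -0.058, or 96.1% of the control level, with 60 of 83 lower (48.5% of all genes) and 1, Rps15a, at an unadjusted p under 0.05 (5.69% of all genes). With the block added and the trend removed, 8 were lower at that p (6.37% of all genes), namely Rps15a, Rps20, Rpl22, Rpsa, Rps3, Rpl21, Rpl15 and Rpl7l1. Without both mice numbered 2, a choice made after seeing the data, the median was -0.36 and 58 were lower at that p (6.37% of all genes).

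**Figure D3:**
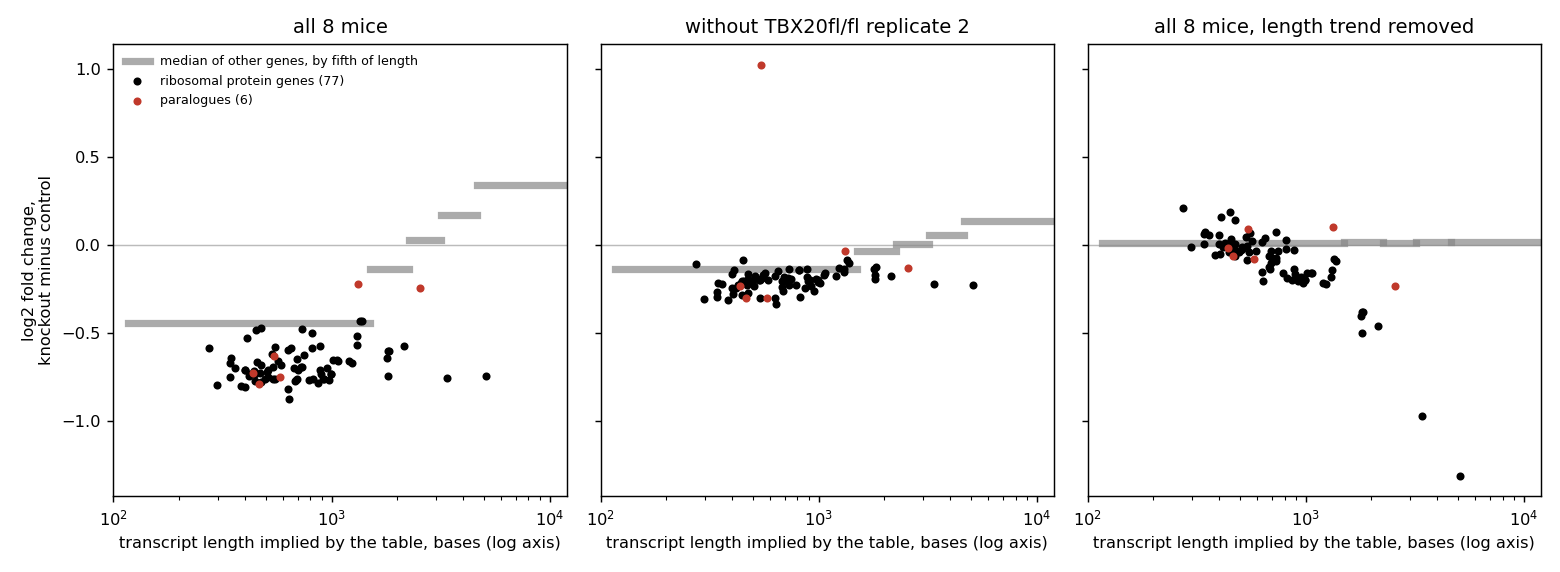
Log2 fold change, TBX20fl/fl;K14-Cre (knockout) minus TBX20fl/fl (control), against transcript length on a log axis in 3 fits; points are the ribosomal protein genes, and grey bars are the median of all other genes in each of 5 length bins, the last of which is drawn to 12000 bases. In the shortest bin the other genes have a median of -0.44 with 8 mice, -0.14 without TBX20fl/fl replicate 2 and 0.01 with the length trend removed.

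Length and fold change went together among other genes, whose medians rose over the 5 length bins from -0.44 through -0.14, 0.03 and 0.17 to 0.34. Among the members themselves the Spearman correlation of fold change with length was 0.26, against 0.56 among the 17041 other genes, and it was 0.40 among the members without TBX20fl/fl replicate 2. Of the 8 members with an implied transcript over 1500 bases, the 7 subunit genes (Rps15a, Rps20, Rpl22, Rpsa, Rps3, Rpl21 and Rpl15) had log2 fold changes from -0.76 to -0.58, and the paralogue Rpl7l1 had -0.24. Once the length trend was removed the 7 ran from -1.31 to -0.38, outside the -0.22 to 0.21 of the other 70 subunit genes. The lowest were Rps15a at -1.31 and Rps20 at -0.97, with the implied lengths of 5087 and 3397 bases given above. The trend subtracted from a gene depends on its implied length, and whether transcripts of that length are the ones present in skin was not tested.

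The 5 members with the smallest p were Rps21, Rps27l, Rps25, Rpl24 and Rpl37a. Rps21, a small-subunit gene (chr2:180257379-180258444), had 596, 798, 579 and 634 FPKM in TBX20fl/fl;K14-Cre replicates 1 to 4 and 704, 1370.5, 841 and 783 FPKM in TBX20fl/fl replicates 1 to 4. TBX20fl/fl;K14-Cre replicate 2 lay above TBX20fl/fl replicates 1 and 4, so the groups overlapped. Its log2 fold change was -0.75 (SE 0.321, adjusted p = 0.498 in edgeR's test), and -0.30 without TBX20fl/fl replicate 2. Rps25, a small-subunit gene (chr9:44407714-44410406), had 865, 1279.6, 914 and 799.8 FPKM against 988, 2369, 1345 and 1201 FPKM, and again only TBX20fl/fl;K14-Cre replicate 2 reached into the control values. It had the largest fold change of the family, -0.87 (SE 0.381, adjusted p = 0.498 in edgeR's test), and -0.33 without TBX20fl/fl replicate 2. Rpl24, at the bridge between the subunits (chr16:55966275-55971437), had 765, 1038, 793 and 687 FPKM against 866, 1909, 1115 and 963 FPKM. Rpl37a, a zinc-binding protein of the large subunit (chr1:72711260-72713813), had 743, 1008, 677 and 680 FPKM against 833, 1658, 1078 and 869.7 FPKM. In both, TBX20fl/fl;K14-Cre replicate 2 overlapped with the lower control mice, and the log2 fold changes were -0.82 (SE 0.362) and -0.76 (SE 0.341), and -0.30 for each without TBX20fl/fl replicate 2. Over the FPKM values the two-sided exact permutation test of the 70 assignments gave p = 0.0857 for Rps21 and Rps27l and p = 0.114 for Rps25, Rpl24 and Rpl37a, where the smallest p that 4 mice against 4 allow is 0.0286, and after adjustment over 15970 genes these were 0.403 and 0.422. No member had 4 values below or above all 4 of the other group, while 1.92% of all genes were lower and 5.45% higher without overlap. Without TBX20fl/fl replicate 2 again 0 members were lower without overlap, against 2.57% of all genes.

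**Figure D4:**
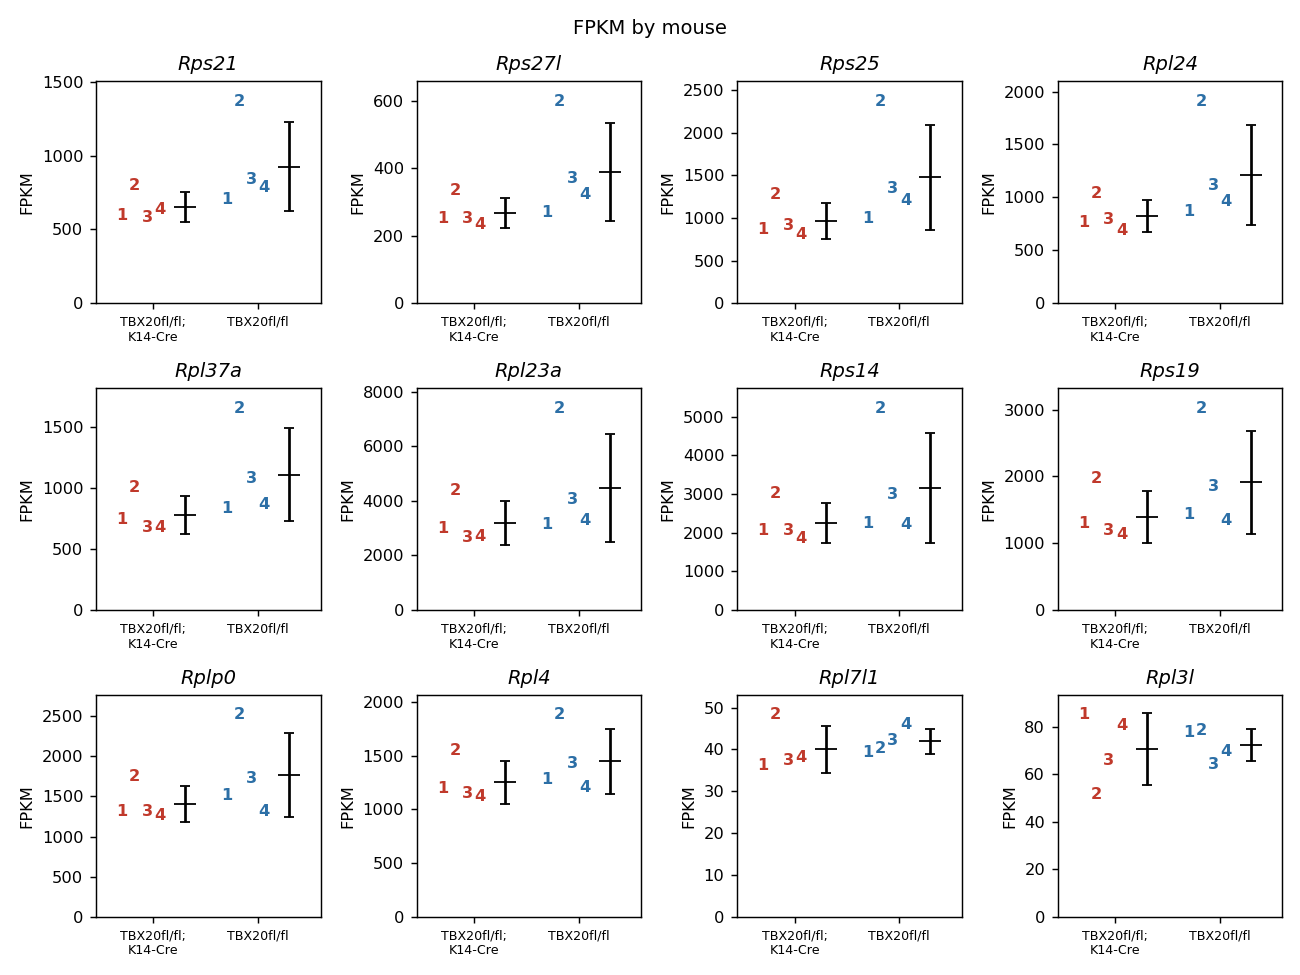
FPKM of 12 members by mouse on axes that start at 0; digits are the replicate numbers of TBX20fl/fl;K14-Cre (red) and TBX20fl/fl (blue) mice, and black bars are the mean ± SD of 4 mice. In 10 of the 12 the number 2 stands highest in both groups, and Rpl7l1 and Rpl3l are the exceptions.

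Of the most abundant members, Rpl23a (chr11:78180935-78183584) had 2994, 4395, 2672 and 2711 FPKM in TBX20fl/fl;K14-Cre mice and 3150.1, 7406, 4044 and 3282 FPKM in TBX20fl/fl mice, means of 3193 ± 814 (SD, n = 4) and 4470.3 ± 1996 (SD, n = 4). Rps14, of the small-subunit platform, had 2067, 3004, 2054 and 1862 FPKM against 2241, 5227, 2990.0 and 2206 FPKM. In both, TBX20fl/fl replicate 2 set most of the difference between the means. The log2 fold changes of Rpl23a, Rps14, Rps3a1, Rpl12 and Rpl13a were -0.75, -0.76, -0.73, -0.68 and -0.77 (adjusted p = 0.498 for each in edgeR's test), and -0.18, -0.19, -0.20, -0.20 and -0.19 without that mouse.

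By subunit, all 31 small-subunit genes and all 46 large-subunit genes were lower, with medians of -0.71 and -0.70, against 0.03 over all genes tested. Without TBX20fl/fl replicate 2 the medians were -0.20 and -0.20. Small-subunit genes named for their roles were Rps3, at the mRNA entry, with -0.60 (SE 0.354), Rpsa, also known as the laminin receptor, with -0.60 (SE 0.334), Rps27a, made as a fusion with ubiquitin, with -0.77 (SE 0.390), and Rps6 with -0.43 (SE 0.276). Rps19, whose mutation causes Diamond-Blackfan anaemia, had 1287, 1974, 1186 and 1128 FPKM against 1429, 3025, 1848 and 1337 FPKM and a log2 fold change of -0.71 (SE 0.388, adjusted p = 0.498 in edgeR's test). The 14 Diamond-Blackfan genes examined were all lower (47.5% of all genes), from -0.79 to -0.64 with a median of -0.72, and 0 passed the threshold. Leaving out TBX20fl/fl replicate 2 brought this median to -0.21, and removing the length trend to -0.04 with 10 of the 14 lower (48.5% of all genes). Without that mouse Rps19 itself had -0.19, and Rps3, Rpsa, Rps27a and Rps6 had -0.13, -0.17, -0.24 and -0.09.

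The stalk, which recruits translation factors to the large subunit, is formed by Rplp0, Rplp1 and Rplp2, which had log2 fold changes of -0.57 (SE 0.322), -0.74 (SE 0.367) and -0.53 (SE 0.301). Rplp0, often used as a reference gene in qPCR, had 1309, 1745, 1307 and 1256 FPKM in TBX20fl/fl;K14-Cre mice and 1509, 2517, 1719 and 1316 FPKM in TBX20fl/fl mice. Each TBX20fl/fl;K14-Cre mouse was lower than the control of the same number, but replicates 4 differed by less than the spread within either group. Rpl5 and Rpl11, which travel together to the large subunit and bind Mdm2, had -0.66 (SE 0.360) and -0.74 (SE 0.370). Of the 9 genes for proteins at the exit tunnel all were lower (47.5% of all genes), with a median of -0.74, and they included Rpl39 at -0.80 (SE 0.363) and Rpl4 at -0.43 (SE 0.281). Rpl4 (chr9:64173387-64178562) had 1195, 1552, 1145 and 1121 FPKM against 1284, 1882, 1424 and 1209 FPKM, the smallest fold change of the 77 subunit genes. Rpl38, needed for translation of some Hox mRNAs, had -0.59 (SE 0.351), and Rpl41, which encodes a very short peptide, had -0.71 (SE 0.367). None of these passed the threshold, with adjusted p from 0.498 to 0.508 in edgeR's test. When TBX20fl/fl replicate 2 was left out, Rplp0, Rplp1 and Rplp2 had -0.16, -0.25 and -0.14, and Rpl5 and Rpl11 had -0.16 and -0.21. Rpl38 and Rpl41 then had -0.11 and -0.25. The exit tunnel genes then had a median of -0.19, which was -0.07 with 8 mice and the length trend removed.

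Members were also compared with each other after each mouse was scaled to its own total of ribosomal protein counts. The 77 subunit genes then lay between -0.17 (Rps25) and 0.19 (Rps6) on the log2 scale, and 64 of them within 0.1 of no change, with 0 past the threshold and 0 at an unadjusted p under 0.05 (0.38% of all genes were lower and 3.15% higher in that fit). The paralogues Rpl3l and Rpl7l1 lay outside this range, at 0.37 and 0.26.

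Rpl3l, which replaces Rpl3 in heart and skeletal muscle, had 85.0, 51.5, 65.7 and 80.6 FPKM in TBX20fl/fl;K14-Cre mice and 77.5, 78.3, 64.1 and 69.4 FPKM in TBX20fl/fl mice. It was lowest in TBX20fl/fl;K14-Cre replicate 2, the mouse with the second highest share of ribosomal protein counts, and its log2 fold change was -0.22 (SE 0.223, adjusted p = 0.595 in edgeR's test). Skeletal muscle markers summed to 17336, 10102, 13065 and 15005 CPM and to 13612, 14230, 12189 and 15298 CPM in the same order, lowest in the same mouse. Per 100 FPKM of Rpl3 there were 8.95, 4.20, 7.03 and 9.36 FPKM of Rpl3l in TBX20fl/fl;K14-Cre and 7.70, 4.71, 5.54 and 6.84 in TBX20fl/fl mice. Rpl7l1, a paralogue of Rpl7 involved in ribosome assembly, had 36.2, 48.3, 37.5 and 38.0 FPKM against 39.3, 40.2, 42.2 and 46.0 FPKM. In TBX20fl/fl replicate 2 it lay within the range of the other controls, unlike the subunit genes. Its log2 fold change was -0.24 (SE 0.163, adjusted p = 0.510 in edgeR's test). When TBX20fl/fl replicate 2 was left out, Rpl3l had -0.035 and Rpl7l1 had -0.13.

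Rps27l, a p53-regulated paralogue of Rps27 (chr9:66944624-66949522), had 251, 335, 251 and 234 FPKM against 268, 599, 371 and 321 FPKM and a log2 fold change of -0.79 (SE 0.345, adjusted p = 0.498 in edgeR's test). This was -0.30 without TBX20fl/fl replicate 2 and -0.06 with the length trend removed. Rpl22l1, the paralogue of Rpl22, lay above its partner in FPKM, with 155, 218, 181 and 153 FPKM per 100 FPKM of Rpl22 in TBX20fl/fl;K14-Cre and 161, 217, 176 and 225 in TBX20fl/fl mice. In counts the order was reversed in every mouse, with 8030 to 13235 for Rpl22 and 2501 to 5833 for Rpl22l1. The FPKM rest on implied lengths of 2154 bases for Rpl22 and 438 for Rpl22l1. Annotated coding transcripts of Rpl22 run from 474 to 2051 bases, and which of them skin uses was not tested. Rpl39l, a copy of Rpl39 enriched in testis, stood at 1.61 to 2.40 FPKM per 100 FPKM of Rpl39 over the 8 mice. In none of the 5 pairs did the ratio of paralogue to partner pass the two-sided exact permutation test between groups (p from 0.371 to 0.8, 0.667 to 0.8 after Benjamini-Hochberg adjustment over the 5 pairs). The other 2 were near absence: Rpl10l, the testis copy of Rpl10, had 0 or 1 counts in every mouse, and Rpl32l had 0 to 8 counts. For Rpl32l the highest count was in TBX20fl/fl replicate 2, and such counts are too few to show a difference.

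Genes that work with ribosomal proteins were read in the same fit. The 78 mitochondrial ribosomal protein genes, made in the cytosol for a separate ribosome, had a median of -0.52, with 76 lower and 13 lower at an unadjusted p under 0.05, against 47.5% and 5.91% of all genes, and 0 passed the threshold. The median was -0.16 without TBX20fl/fl replicate 2. Mrpl32 had 46.0, 50.3, 41.1 and 39.6 FPKM in TBX20fl/fl;K14-Cre mice and 49.2, 104.2, 64.5 and 56.1 FPKM in TBX20fl/fl mice, with a log2 fold change of -0.88 (SE 0.329, adjusted p = 0.498 in edgeR's test). Only TBX20fl/fl;K14-Cre replicate 2 reached above a control mouse. Mrps21 had a log2 fold change of -0.64 (SE 0.258). The log2 fold changes of Mrpl32 and Mrps21 were -0.40 and -0.30 without TBX20fl/fl replicate 2.

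Translation factors and other genes whose mRNAs also carry a TOP tract were less uniform: 13 of 16 were lower, with a median of -0.39, and 0 had an unadjusted p under 0.05, against 47.5% of all genes lower and 5.91% lower at that p. Eif3e and Btf3 had -0.73 (SE 0.343) and -0.72 (SE 0.344). The median of the 16 was -0.078 without TBX20fl/fl replicate 2, and Eif3e and Btf3 then had -0.23 and -0.23. Of 26 nucleolar ribosome assembly genes 15 were lower and 11 higher, with a median of -0.18. Only Gnl3, a nucleolar GTPase, had an unadjusted p under 0.05 among them, with a log2 fold change of -0.64 (SE 0.261, adjusted p = 0.498 in edgeR's test), and Rpf2, which helps to place Rpl5 and Rpl11, had -0.76 (SE 0.343). The 15 growth signalling genes, the mTOR pathway and its regulators of translation, had a median of 0.16 with 4 lower and 11 higher. Among these Eif4e, the cap-binding protein, had -0.53 (SE 0.254) and Rheb, the activator of mTOR, -0.54 (SE 0.273). Leaving out that mouse gave medians of -0.04 for the assembly genes and 0.10 for growth signalling, with Gnl3 at -0.32, Rpf2 at -0.30, Eif4e at -0.20 and Rheb at -0.17. The order of the list medians ran with transcript length, whose list medians were 676 bases for the ribosomal protein genes, 1012 for the mitochondrial, 1504 for the TOP factors, 2669 for the assembly genes and 5331 for growth signalling. With the length trend removed the medians of these lists were -0.06, -0.04, -0.13, -0.03 and 0.14 in the same order.

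**Figure D5:**
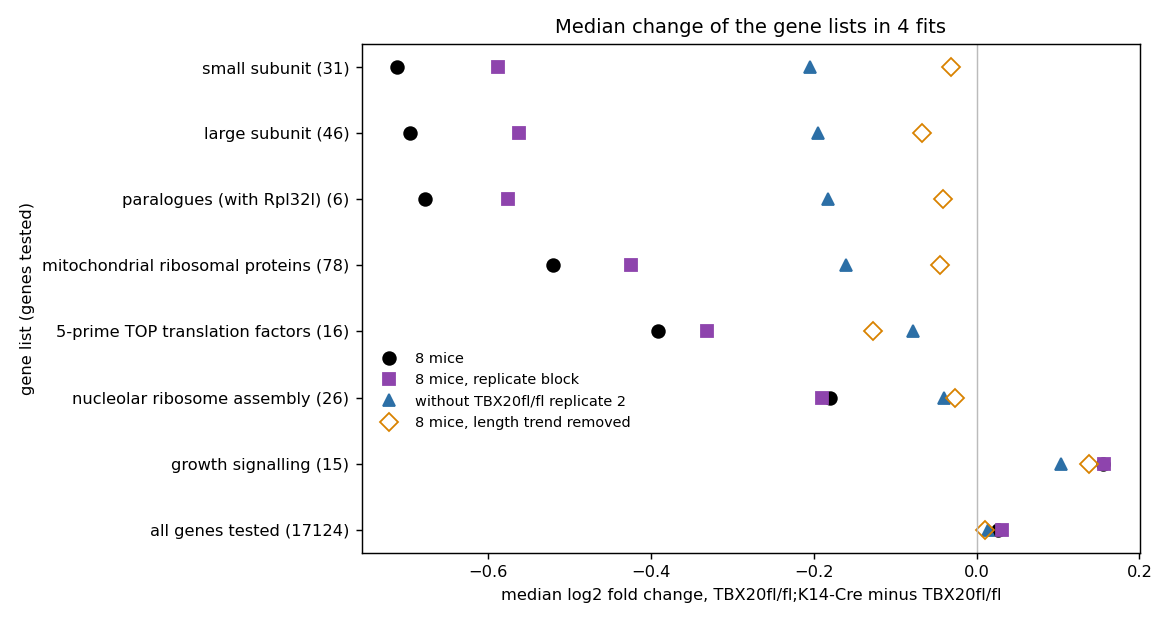
Median log2 fold change (horizontal axis) of 7 gene lists and of all genes tested, with the number of genes tested in brackets, in 4 fits. The small subunit, large subunit and paralogue lists lie near -0.70 with 8 mice, near -0.20 without TBX20fl/fl replicate 2 and between -0.07 and -0.03 with the length trend removed.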

How the data were processed

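RNA-seq of whole cheek skin from 8 mice, 4 for each genotype and 1 library for each mouse, was taken as the authors deposited it. The authors sequenced single-end 50-base reads of poly(A) RNA, removed poor reads with SOAPnuke and used HISAT as the aligner; the counting program is not given in the sources used here. Estimated counts (expected counts), deposited without normalization, were the basis of the tests, and 69% of those above 0 are not whole to within 1e-06, as when reads are divided between transcripts, which bears on members that share sequence. The deposited FPKM values were made by the authors with the Dr. Tom platform, and the deposited TPM values served as an alternative. Normalized counts, 40 columns of group means and 17 comparisons with the authors' fold changes and p-values were not used. Coordinates are GRCm38.

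Counts were rounded, and the 17124 genes that reached 10 counts over all mice were fitted by edgeR 4.0.16 (quasi-likelihood test, TMM normalization) in R 4.3.3, with Benjamini-Hochberg adjustment over all of them. SE was obtained from the log2 fold change and the F statistic (fold change over root F). FPKM was compared in 15970 genes with a mean of at least 0.1 by exact permutation, two-sided, of the 70 ways to assign the mice. Transcript length was derived from counts, FPKM and totals, and a smooth trend of log2 CPM with length was fitted in each mouse on non-members with a mean count of at least 50 and used as an offset. The edgeR, DESeq2 and limma fits were tested on counts simulated with edgeR's estimates of spread. DESeq2 made more false calls there than the others. The counts given to DESeq2 and limma held no length trend, so they do not rank these tools for the real data. DESeq2 1.42.0 and limma 3.58.1 gave alternatives. Totals were 16056282 to 19880654 counts, so that 3 counts are 0.151 to 0.187 CPM, a limit for counting error only. Python 3.11.15 with numpy 2.4.6, pandas 2.3.3 and scipy 1.17.1 was used.

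Replicate numbers are those of the labels; each belongs to a different animal. Over the non-member genes, deviations from the group mean correlated between same-numbered mice at r = 0.105 to 0.323 (mean 0.219), against -0.405 to 0.318 (mean -0.07) for the other 12 combinations, so the numbers were taken to pair the mice in the blocked fit. This pairing rests on these correlations alone: no source used here ties a number to a litter, batch or day. It does not hold for each mouse, since TBX20fl/fl;K14-Cre replicate 4 correlated at 0.318 with TBX20fl/fl replicate 1 and at 0.105 with TBX20fl/fl replicate 4.

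Members and lists were chosen with earlier results of these data known. Named members are the 5 with the smallest edgeR p in each direction (none was higher), the 5 with the highest FPKM, members listed by role, and paralogues with their partners (Rps4l was not in the table); Rpl32l was added after its values were seen. From each other list up to 2 genes with the smallest p are named. A further short list is not reported here. Other genes were named after their values were seen.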

Additional observations from a re-analysis of the deposited data

Results flagged for a closer look

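In 16 of the 92 groups of 4 mice examined (FPKM of the 35 named members, medians and shares per mouse, and paralogue ratios, in both groups), 1 mouse lay far from the other 3, where chance gives about 1 in 20, or 4.6. The groups are not independent, since the members moved together. The mouse far from the others was TBX20fl/fl;K14-Cre replicate 2 in 13 of the 16, TBX20fl/fl replicate 2 in 2, and TBX20fl/fl replicate 3 for Rpl10l alone. These marks do not rank the mice by size. TBX20fl/fl replicate 2 had the highest FPKM in 81 of the 84 members. Its 7406 FPKM of Rpl23a, against 3150 to 4044 in the other controls, was not marked.

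TBX20fl/fl;K14-Cre replicate 2 had 8.22% of its counts in ribosomal protein genes, against 5.35% to 5.72% in the other 3 mice of its group, and 20.1% of its summed FPKM, against 14.3% to 15.0%. The stalk genes were far above in it, at 1745 FPKM for Rplp0, 2411 for Rplp1 and 1095 for Rplp2. So were the large-subunit genes Rpl5 (1573 FPKM), Rpl7 (2178 FPKM; the other 3 had 1499.9 to 1569.6), Rpl13a (2756 FPKM) and Rpl38 (804 FPKM), the small-subunit genes Rps3 (1107 FPKM) and Rps3a1 (2995 FPKM), and the paralogues Rps27l (335 FPKM) and Rpl7l1 (48.3 FPKM; the other 3 had 36.2 to 38.0). In TBX20fl/fl replicate 2, Rpl12 stood at 4240.2 FPKM, against 2154 to 2473 in the other controls, and Rps3 at 1574 FPKM, against 805 to 919. Rpl10l was listed at 0.05 FPKM in TBX20fl/fl replicate 3 and at 0 in the other controls, which rests on 1 count.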

How the results depend on the processing

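The count of members past the threshold was 0 in edgeR with every normalization, filter and offset tried, with the replicate block, in DESeq2 and limma, and without any 1 mouse (0 to 0). The number at an unadjusted p under 0.05, 4 in the report, was 0 with scaling to the total count only, 1 with the length trend removed, 53 with the replicate block, 8 with the replicate block and length trend removed, 0 with scaling to the members' total, 26 in DESeq2, 0 in limma with either pseudocount, and 0 to 54 without 1 mouse; it was 54, 36 and 19 without TBX20fl/fl replicate 1, TBX20fl/fl replicate 4 and TBX20fl/fl;K14-Cre replicate 2, 1 without TBX20fl/fl replicate 3, and 0 without any of the other 4. Chosen after seeing the data, leaving out both mice numbered 2 gave 58, and leaving out TBX20fl/fl replicate 2 with the length trend removed gave 0. The block changed no call past the threshold.

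The median log2 fold change of the members, -0.70, was -0.058 with the length trend removed, -0.059 with the block and the trend removed, -0.45 with scaling to the total count, where the median of all genes was 0.17, -0.36 without both mice numbered 2, and -0.037 without TBX20fl/fl replicate 2 and with the trend removed. Without 1 mouse it ran from -0.87 to -0.20. The difference in the share of counts, -2.17 percentage points, ran from -2.89 to -0.68, the smallest without TBX20fl/fl replicate 2. Medians of the mitochondrial list were -0.045, -0.039 and -0.0102 with the trend removed, with the block and trend removed, and without TBX20fl/fl replicate 2 and with the trend removed (-0.65 to -0.16 without 1 mouse). Under the last of these settings the TOP factors had -0.0064 (-0.50 to -0.078 without 1 mouse) and growth signalling -0.0016 (0.10 to 0.22), and growth signalling had 0.32 with scaling to the total count. The assembly genes ran from -0.28 to -0.04 without 1 mouse. With scaling to the total count they had -0.0006, with 14 lower and 12 higher.

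Of 748 values for 34 named members under these settings, 717 kept their direction and side of the threshold and 31 turned above 0, none past it. With scaling to the members' total, values are relative to the family: Rpl10 0.044, Rpl22 0.076, Rpl3 0.12, Rpl38 0.0899, Rpl3l 0.37, Rpl4 0.18, Rpl5 0.038, Rpl7l1 0.26, Rplp0 0.088, Rplp2 0.11, Rps3 0.064, Rps6 0.19 and Rpsa 0.051. With the length trend removed, Rpl38 had 0.21, Rpl3l 0.10, Rpl41 0.0058, Rplp2 0.16 and Rps21 0.0066. With the block and the trend removed, Rpl38 had 0.22, Rpl3l 0.072, Rpl41 0.0033, Rplp2 0.17, Rps21 0.012 and Rps27 0.00024. Without TBX20fl/fl replicate 2 and with the trend removed, Rpl23a had 0.018, Rpl38 0.13, Rpl3l 0.067, Rplp2 0.075, Rps14 0.0035 and Rps6 0.00902, and without both mice numbered 2 Rpl3l had 0.098. The causes were not tested. With 4 mice a group, no permutation p under 0.0286 can be had.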
